A study of Capra hircus with 6 samples.

Results

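Bone morphogenetic proteins (BMPs) and activins are secreted ligands of the TGF-beta superfamily, and 9 genes that encode such ligands, the proteins that trap them outside the cell, or an enzyme that processes their environment were followed in mesenchymal stem cells from goat (Capra hircus) fat. The genes were chosen by symbol from the 16285 genes of the deposited expression tables, and all 9 were found: the ligand genes BMP2, BMP4, BMP6 and INHBA, the antagonist genes GREM1, NOG, FST and FSTL3, and the protease gene BMP1. RNA sequencing was done on 6 libraries, 3 control libraries labelled wild type and 3 libraries labelled as overexpressing YAP, and the labels of both groups record treatment for adipogenic differentiation without a time or a dose. The series' design text speaks instead of cells made to overexpress TAZ, and the labels name no vector, promoter, clone, animal or age. Of 6 further value columns deposited beside the YAP libraries, the 3 named pcDNA, a name shared with a family of expression vectors, held the same values as the 3 control columns for every gene. The control values thus stand in both tables. None of those 6 columns was used.

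BMP ligands bind type I and type II receptor kinases that phosphorylate SMAD1, SMAD5 and SMAD9, whereas activins signal through SMAD2 and SMAD3. In stromal cells of fat, BMP2 and BMP4 are known to favour commitment to the adipocyte lineage, and activin A, a dimer of the INHBA product, is known to hold progenitors in a proliferating state. Gremlin and noggin bind BMPs, while follistatin and follistatin-like 3 bind activins, so the level of free ligand depends on both sides. BMP1 carries the family name but is a metalloproteinase that cleaves procollagens and the BMP antagonist chordin.

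The libraries held 32593380 to 37131015 counted fragments each, and levels are given as FPKM, counted fragments normalised for gene length and library depth, as mean ± SD with n = 3 per group. Log2 changes are differences in log2(FPKM + 1), which understate the change of low genes, and a call means an adjusted p under 0.05 from limma, a linear model fitted on the 10761 genes that reached 1 FPKM in 3 or more libraries. YAP1 stood at 27.2 ± 1.54 FPKM in controls and 27.4 ± 1.57 FPKM in the other group (log2 change 0.01, limma adjusted p = 0.95). WWTR1, the gene that encodes TAZ, stood at 31.96 ± 3.38 and 21.42 ± 1.98 FPKM (log2 change -0.555, limma adjusted p = 0.0013). Neither gene was called higher in the second group. That group is therefore called the libraries labelled YAP, and every direction below is that of the labelled group. Whether replicates are separate cultures is not in the labels. The p-values therefore set the group difference only against the spread between these libraries, which can be technical variation. Of the stromal markers fixed for the check of the cell type, all 10 were above the filter. Of 5 leukocyte markers, AIF1, PTPRC, CD74 and TYROBP had at most 3 reads in a library, whereas LAPTM5 was measured at 9.47 ± 0.23 FPKM in controls and 10.2 ± 0.82 FPKM in the other group and was not called. The endothelial markers summed to at most 0.533 FPKM in a library. Among them PECAM1 had 133 reads over the 3 controls and 17 over the 3 libraries labelled YAP, and VWF had 29 and 96. The 5 epithelial markers summed to at most 2.12 FPKM in a library. Of these only CLDN4 was tested, at 0.931 ± 0.39 and 1.41 ± 0.45 FPKM, and it was not called. KRT14 had 93 and 14 reads.

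Among the 9 genes, BMP4, FSTL3 and BMP1 rose in the libraries labelled YAP, and FST, GREM1, BMP2 and INHBA fell. NOG was tested and not called, and BMP6 was too low to be tested. Of all 10761 tested genes, 12.9% were called higher and 23.0% lower, 35.9% in either direction, which is the background for the 3 higher and 4 lower calls among the 8 tested genes. No overlap between groups was seen for 7 of the 8 tested genes, 3 of them higher and 4 lower, where 48.3% of all tested genes had no overlap, 16.7% higher and 31.6% lower. BMP2 passed the filter through the controls only and so had to differ. The 9 genes were also chosen with earlier results of these data known. The counts of calls and of genes without overlap are therefore descriptions. The median log2 change of the 8 tested genes was -0.38, beside -0.095 over all tested genes. Median-of-ratios scaling changed the share of lower genes among all calls from 64.0% to 46.9%, and it left the sign of all 8 log2 changes as it was. RNA was taken from whole cultures, where fewer cells of a type and less RNA per cell cannot be told apart.

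**Figure D1:**
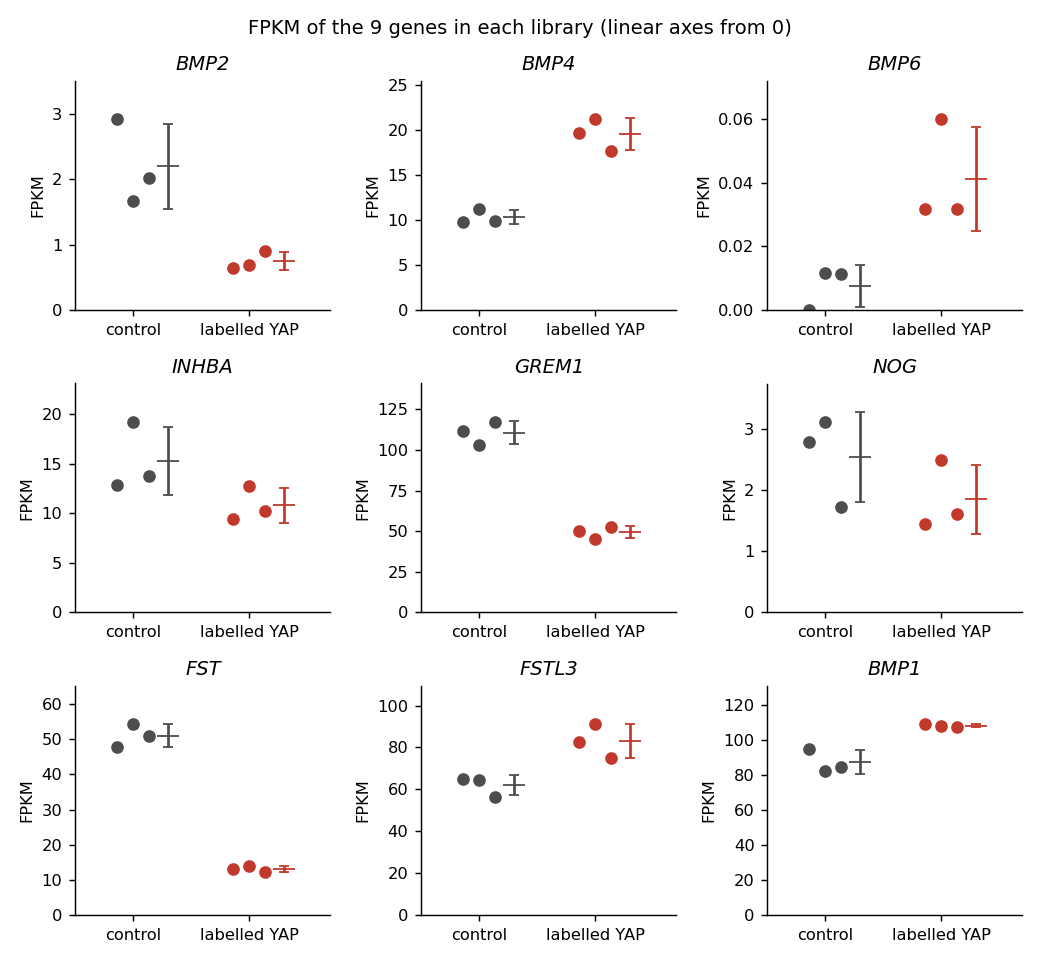
FPKM of each of the 9 genes in every library, on linear axes from 0, with the group mean and SD (n = 3) beside the points. FST lies between 47.9 and 54.3 FPKM in controls and between 12.1 and 13.8 in the libraries labelled YAP, while the NOG points of the 2 groups overlap.

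Of the ligand genes, BMP4, which encodes a BMP that acts through BMP type I receptors, was measured at 9.80, 11.2 and 9.93 FPKM in control replicates 1 to 3. In replicates 1 to 3 of the libraries labelled YAP it was measured at 19.7, 21.2 and 17.7 FPKM. All 3 libraries labelled YAP lay above all controls. The means were 10.3 ± 0.80 and 19.5 ± 1.78 FPKM, or 1.89-fold (a log2 change of 0.86 with SE 0.09, limma adjusted p = 4.2e-05), and each value rested on 960 to 2037 reads. Exact permutation of the group labels (two-sided, on group means) gave p = 0.1, the lowest value that 3 against 3 libraries can reach, for BMP4 and for each of the other 6 called genes. For BMP2 the filter fixed that value in advance.

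BMP2, the closest relative of BMP4 in sequence, went the other way. Controls held 2.92, 1.66 and 2.02 FPKM and the libraries labelled YAP 0.651, 0.692 and 0.911 FPKM. Only the controls reached 1 FPKM, so passing the filter fixed in advance that the groups did not overlap. Control replicate 1 stood well above the other 2 controls. The mean fell from 2.20 ± 0.65 to 0.751 ± 0.14 FPKM, which is 34.1% of the control level (log2 change -0.86, SE 0.14, limma adjusted p = 5.8e-04). With a pseudocount of 0.1 FPKM the log2 change was -1.41, and with limma-voom on recovered reads it was -1.515. The values rested on 75 to 136 reads in controls and 30 to 45 reads in the libraries labelled YAP.

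BMP6, a further BMP ligand, was at the edge of detection, taken as 3 reads. It had 0, 1 and 1 reads in the controls and 3, 5 and 3 reads in the libraries labelled YAP. Those numbers are too low for a fold change.

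INHBA, whose product pairs with itself to form activin A, was measured at 12.8, 19.3 and 13.8 FPKM in controls and at 9.39, 12.7 and 10.3 FPKM in the libraries labelled YAP. The groups did not overlap, but the highest library labelled YAP, replicate 2, lay just under the lowest control. The mean fell from 15.3 ± 3.47 to 10.8 ± 1.73 FPKM (log2 change -0.45, SE 0.14, 95% confidence interval -0.77 to -0.14, limma adjusted p = 0.031). The direction stayed in all 13 alternatives, but the call was lost in 6 of them, among them median-of-ratios scaling (-0.375, limma adjusted p = 0.083). It was also lost without control replicate 2, the highest library (-0.29, limma adjusted p = 0.096), without YAP replicate 1 (limma adjusted p = 0.12) and without YAP replicate 3 (limma adjusted p = 0.06).

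Taken as a sum, the antagonist genes were the more abundant side, but not gene by gene. NOG lay below BMP4 and INHBA in both groups, and FST lay below BMP4 in the libraries labelled YAP. GREM1, which encodes gremlin, a trap for BMP2 and BMP4, had the highest level of the 9 genes in controls, with 112, 103 and 117 FPKM. In the libraries labelled YAP it had 50.2, 45.5 and 52.9 FPKM, and the lowest control was well above the highest of these. The mean fell from 111 ± 7.32 to 49.5 ± 3.75 FPKM, a 2.24-fold lower level (log2 change -1.15, SE 0.08, limma adjusted p = 1.7e-06). Its fall ranked 53 among all tested genes on the log2(FPKM + 1) scale.

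FST, which encodes the activin trap follistatin, showed the largest change of the 8 tested genes. Controls held 47.9, 54.3 and 51.0 FPKM, and the libraries labelled YAP 13.1, 13.8 and 12.1 FPKM. The mean fell from 51.1 ± 3.23 to 13.01 ± 0.86 FPKM, 25.5% of the control level (log2 change -1.89, SE 0.08, 95% confidence interval -2.08 to -1.71, limma adjusted p = 3.2e-08). This was the fall of rank 7 among all tested genes, and the absolute change was larger than that of 99.3% of them.

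FSTL3, the gene of the follistatin relative that also binds activins, moved opposite to FST. It stood at 64.9, 64.5 and 56.4 FPKM in controls and at 82.6, 91.2 and 75.0 FPKM in the libraries labelled YAP, with no overlap between the groups. The mean rose from 62.0 ± 4.82 to 82.9 ± 8.09 FPKM, or 1.34-fold (a log2 change of 0.41 with SE 0.09, limma adjusted p = 0.0052). The rise was called in all 13 alternatives, with limma adjusted p of at most 0.025.

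NOG, which encodes noggin, was low in both groups. Its values were 2.79, 3.12 and 1.72 FPKM in controls and 1.44, 2.49 and 1.61 FPKM in the libraries labelled YAP. Control replicate 3 lay below YAP replicate 2, so the groups overlapped. The log2 change was -0.31 with a 95% confidence interval of -0.68 to 0.055 (limma adjusted p = 0.17, exact permutation p = 0.2). Without control replicate 3 it was -0.49 (limma adjusted p = 0.025) and without YAP replicate 2 it was -0.465 (limma adjusted p = 0.033), so single libraries decided the call.

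BMP1, the procollagen C-proteinase, was measured at 94.97, 82.0 and 84.6 FPKM in controls and at 109, 108 and 107 FPKM in the libraries labelled YAP. The latter were close together, with a coefficient of variation of 0.862% beside 7.85% in controls, and all lay above the controls. The mean rose from 87.2 ± 6.85 to 108 ± 0.93 FPKM, or 1.24-fold (a log2 change of 0.31 with SE 0.08, limma adjusted p = 0.01). The call was lost without YAP replicate 1 (limma adjusted p = 0.057).

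**Figure D2:**
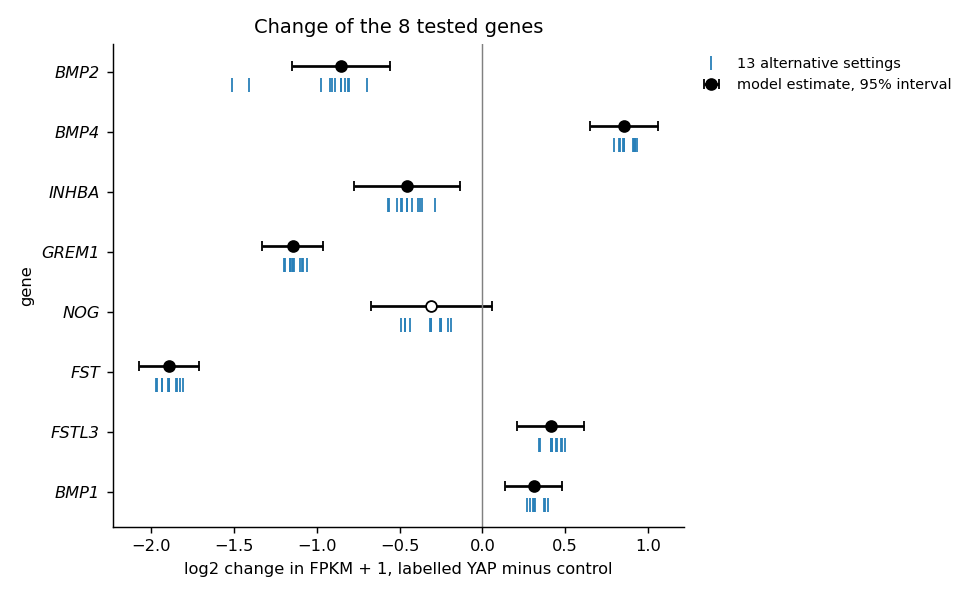
Log2 change in FPKM + 1, libraries labelled YAP minus control, for the 8 tested genes, with 95% confidence intervals from limma (filled, called; open, not called) and the estimates under 13 alternative settings as ticks beneath. FST has the largest fall at -1.89, BMP4 the largest rise at 0.86, and the interval of NOG crosses 0.

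The order of the levels differed between the groups. In controls GREM1 came first, followed by BMP1, FSTL3, FST, INHBA, BMP4, NOG, BMP2 and BMP6, and the only neighbours whose libraries overlapped were NOG and BMP2. In the libraries labelled YAP the order was BMP1, FSTL3, GREM1, BMP4, FST, INHBA, NOG, BMP2 and BMP6, and the only overlapping neighbours were FST and INHBA. INHBA was above BMP4 in every control, and BMP4 was above INHBA in every library labelled YAP.

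The FPKM of GREM1, FST, FSTL3 and NOG summed to 226 ± 1.29 among controls and 147 ± 5.67 among the libraries labelled YAP. GREM1 made up 48.9% ± 3.05 of that sum among controls and 33.7% ± 3.82 among the libraries labelled YAP, and FST 22.6% ± 1.56 and 8.83% ± 0.25. FSTL3 made up 27.4% ± 2.15 and 56.2% ± 3.32. Of these 4 genes, the most abundant transcript was thus GREM1 in the controls and FSTL3 in the libraries labelled YAP. FSTL1, listed with the other antagonists and modulators and outside this sum, was higher still. It stood at 357 ± 28.0 FPKM in controls and 384 ± 9.38 FPKM in the libraries labelled YAP. The ligand genes BMP2, BMP4, BMP6 and INHBA summed to 27.8 ± 3.77 and 31.1 ± 3.14 FPKM, sums whose libraries overlapped between the groups. Within the ligand sum, BMP4 made up 37.3% ± 2.04 among controls and 62.8% ± 2.88 among the libraries labelled YAP, INHBA 54.5% ± 4.91 and 34.6% ± 2.70, and BMP2 8.16% ± 3.15 and 2.45% ± 0.62. These shares describe transcript levels and say nothing of protein or of binding.

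**Figure D3:**
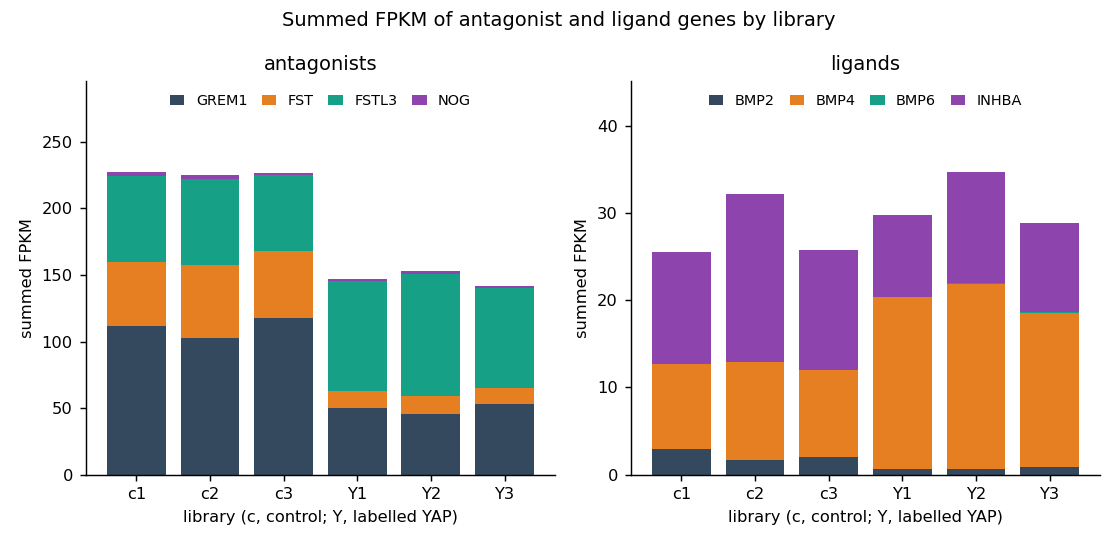
Summed FPKM of 4 antagonist genes and 4 ligand genes in each library, stacked by gene on axes from 0 (c, control; Y, labelled YAP). The antagonist sum is 226 on average among controls and 147 among the libraries labelled YAP, and the BMP4 part of the ligand sum is larger in the latter.

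A ratio of 2 genes within a library does not depend on how libraries are scaled. The FPKM of INHBA relative to its trap FST was 0.268, 0.354 and 0.270 in controls and 0.719, 0.919 and 0.848 in the libraries labelled YAP. The groups did not overlap, and the ratio was 2.80-fold higher in the libraries labelled YAP (log2 difference 1.48). Relative to FSTL3, INHBA went the other way, with a mean ratio of 0.247 ± 0.051 among controls and 0.130 ± 0.014 among the libraries labelled YAP (log2 difference -0.91). The INHBA ratio was thus higher in that group against FST and lower against FSTL3. The ratio of FST to FSTL3 itself was 0.828 ± 0.084 among controls and 0.157 ± 0.0049 among the libraries labelled YAP, 5.25-fold lower.

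BMP4 relative to GREM1 was 0.0875, 0.109 and 0.0846 in controls and 0.392, 0.466 and 0.334 in the libraries labelled YAP, a 4.23-fold higher ratio (log2 difference 2.08). GREM1 transcripts still exceeded those of BMP4 in every library. BMP4 relative to NOG had a mean ratio of 4.30 ± 1.29 among controls and 11.02 ± 2.55 among the libraries labelled YAP, also without overlap. BMP2 relative to GREM1 did not separate the groups (0.0198 ± 0.0055 and 0.0151 ± 0.0021), and neither did BMP2 relative to NOG (0.918 ± 0.34 and 0.431 ± 0.14). Exact two-sided permutation tests gave p = 0.1 for each of the 5 ratios without overlap, the smallest p possible here, p = 0.3 for BMP2 over GREM1 and p = 0.2 for BMP2 over NOG. Adjusted over the 7 ratios these were 0.14, 0.3 and 0.233, so no ratio passed the threshold, which this design cannot reach. An eighth ratio, BMP6 over GREM1, was not formed because BMP6 was at 0 in control replicate 1.

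**Figure D4:**
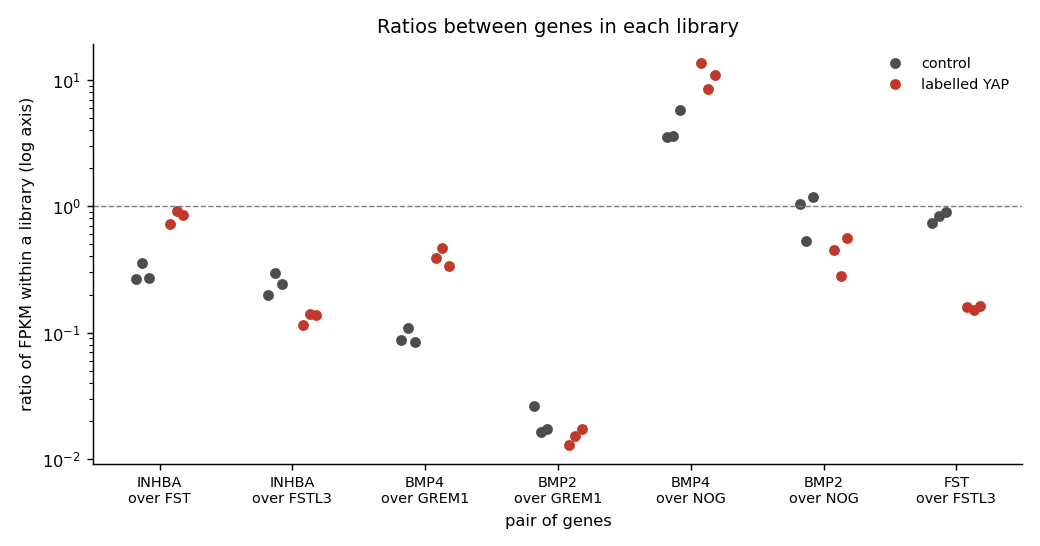
Ratio of the FPKM of 2 genes within each library, on a log axis, for controls and libraries labelled YAP (3 points each; the dashed line marks equal levels). INHBA over FST, BMP4 over GREM1 and BMP4 over NOG are higher in all libraries labelled YAP than in all controls, and INHBA over FSTL3 and FST over FSTL3 are lower.

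The genes around these 9 in the pathway moved in both directions. Of 63 other BMP and activin pathway genes in the tables, 39 were tested, 8 were higher, 13 were lower and 18 were not called. Thus 53.8% were called beside 35.9% of all genes, and their median log2 change was -0.129 beside -0.095. The lists were chosen with earlier results of these data known, so these shares are a description. Among 5 other ligand genes tested, INHBB, the second activin subunit gene, rose from 0.873 ± 0.29 to 2.95 ± 0.23 FPKM (log2 change 1.08, limma adjusted p = 3.8e-05). INHBE, an activin subunit gene best known from liver, rose from 1.64 ± 0.99 to 3.60 ± 0.22 FPKM, and GDF1 fell from 2.72 ± 0.44 to 1.85 ± 0.22 FPKM. INHBB had 1 control library at 1 FPKM or more and INHBE 2, so both passed the filter mainly through the group in which they were higher. INHBA was the most abundant of the 3 activin subunit transcripts in both groups.

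Of 5 receptor genes tested, ACVR2A, an activin type II receptor, rose from 3.06 ± 0.66 to 4.96 ± 0.36 FPKM (log2 change 0.56, limma adjusted p = 0.0039). BMPR2, the BMP type II receptor, fell from 7.84 ± 1.21 to 5.92 ± 0.94 FPKM (log2 change -0.36, limma adjusted p = 0.047). The type I receptor genes BMPR1A, ACVR1 and ACVR1B were not called. All 5 tested coreceptor genes were called, in both directions, beside 35.9% of all tested genes. ENG, the coreceptor endoglin, fell from 150 ± 14.8 to 80.8 ± 4.98 FPKM (log2 change -0.88, limma adjusted p = 2.2e-05). RGMB, a BMP coreceptor, fell from 15.6 ± 0.87 to 11.3 ± 1.27 FPKM and NEO1, a receptor for repulsive guidance molecules, from 3.00 ± 0.50 to 1.90 ± 0.23 FPKM, whereas TGFBR3, a coreceptor that also binds inhibin, rose from 28.0 ± 3.63 to 39.7 ± 2.74 FPKM. RGMA rose from 1.48 ± 0.21 to 2.16 ± 0.068 FPKM.

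Of 4 other antagonist or modulator genes tested, CRIM1, which encodes a membrane protein that binds BMPs, rose from 18.2 ± 3.04 to 30.7 ± 5.29 FPKM (log2 change 0.72, limma adjusted p = 0.0020). TWSG1, FSTL1 and WFIKKN1 were not called, and 7 more were below the filter. Among 6 tested genes of ligand processing and procollagen cleavage, 1 rose and 4 fell, beside 12.9% higher and 23.0% lower of all tested genes. TLL2, a tolloid protease of the BMP1 family, fell from 23.7 ± 2.87 to 11.2 ± 0.59 FPKM (log2 change -1.01, limma adjusted p = 1.5e-05), while BMP1 itself rose. FURIN, a convertase that cleaves ligand precursors, fell from 48.0 ± 5.96 to 33.5 ± 1.25 FPKM. PCSK6, another convertase, rose from 60.9 ± 4.99 to 80.6 ± 0.95 FPKM, and PCOLCE2, an enhancer of procollagen cleavage, fell from 183 ± 7.44 to 149 ± 3.33 FPKM.

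Of 8 tested genes for SMADs and their ubiquitin ligases, 1 was called, 12.5% beside 35.9% of all genes. SMAD9, a BMP-specific SMAD, fell from 3.10 ± 0.56 to 1.45 ± 0.17 FPKM (log2 change -0.73, limma adjusted p = 5.4e-04). SMAD1 stood at 15.0 ± 1.65 and 14.6 ± 1.35 FPKM, with a 95% confidence interval of the log2 change from -0.26 to 0.18, and SMAD3, which carries activin signals, at 9.40 ± 0.60 and 7.80 ± 0.41 FPKM (limma adjusted p = 0.051). Among known BMP target genes, ID1 (log2 change -2.59), ID2 (-0.92) and SMAD7 (-0.87) fell, ID4 rose (1.597), and ID3 (0.22) and SMAD6 (-0.13) were not called.

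**Figure D5:**
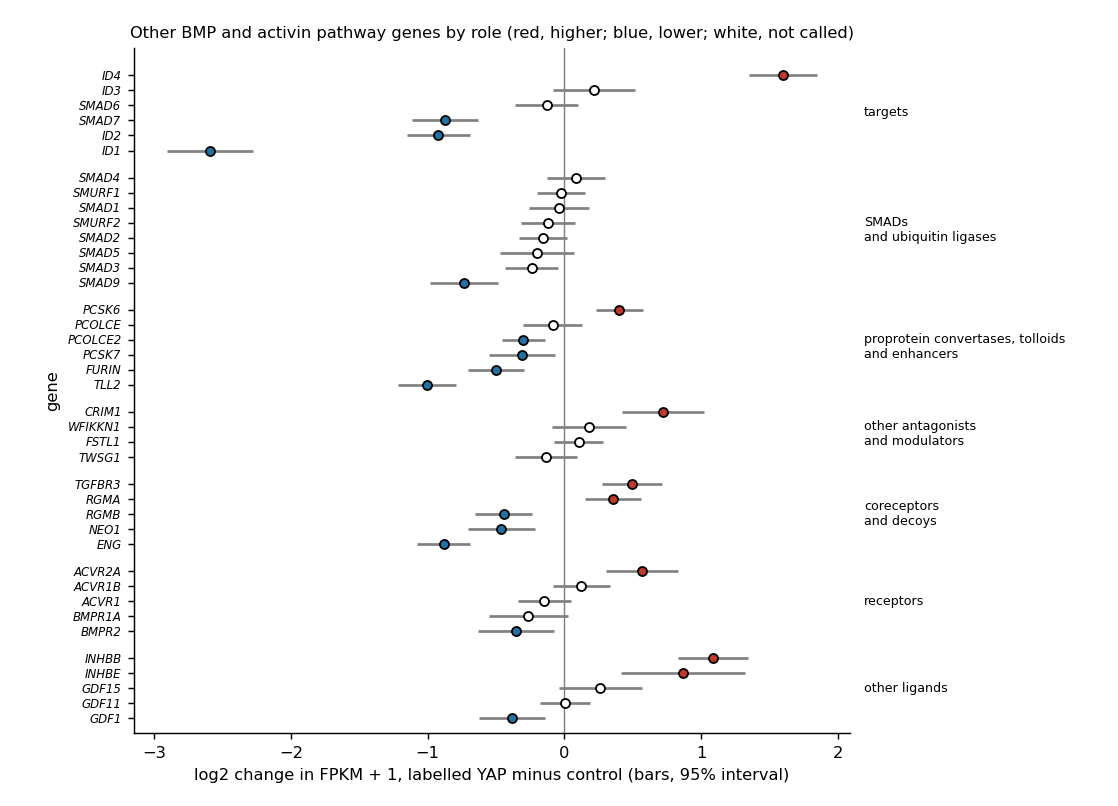
Log2 change in FPKM + 1, libraries labelled YAP minus control, of the 39 tested pathway genes outside the 9, grouped by role, with 95% confidence intervals from limma (red, higher; blue, lower; white, not called). Coreceptor genes are all called, in both directions, and of the SMAD and ubiquitin ligase genes only SMAD9 is, where 35.9% of all tested genes are called.

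The genes most like each of the 9 were sought by the root mean square difference between profiles of log2(FPKM + 1) over the 6 libraries, each centred on its mean. This measure is set mostly by the group difference and describes likeness in these libraries only. FST was nearest to EEF1A2, an elongation factor gene (difference 0.104), and LZTS1 (0.117). GREM1 was nearest to CTHRC1 (0.034), a secreted protein of remodelling tissue, which went from 7.07 ± 0.50 to 2.58 ± 0.31 FPKM, and then to CCDC136 (0.070). BMP4 was nearest to LTBP4 (0.049), a latent TGF-beta binding protein, at 6.996 ± 0.67 and 13.7 ± 0.51 FPKM, and to the proteasome activator gene PSME2 (0.054). BMP2 was nearest to NPTXR (0.031) and SYNPO (0.064). FSTL3 was nearest to FAM131C (0.023) and LEMD2 (0.025), and BMP1 to EHMT2 (0.015) and TPBG (0.019). INHBA was nearest to MFAP4 (0.076) and FLOT1 (0.097), and NOG to MRPL28 (0.073) and CHCHD10 (0.076).

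Some markers of other cell types or lineages moved with the groups. Smooth muscle and pericyte markers summed to 335 to 559 FPKM in controls and 708 to 809 FPKM in the libraries labelled YAP. Nearly all of it was ACTA2. RGS5 had 5 reads in each group, and MYH11 stood at 0.108 ± 0.036 and 0.118 ± 0.018 FPKM. MCAM went down, with 59 reads over the 3 controls and 14 over the 3 libraries labelled YAP. DES had 99 and 161 reads, and its groups overlapped. Of 6 deposited bone and cartilage markers, 3 were tested, and RUNX2 fell from 8.82 ± 0.95 to 6.71 ± 0.63 FPKM. SOX9 (2.96 ± 0.69 and 0.452 ± 0.078 FPKM) and SP7 (1.33 ± 0.23 and 0.725 ± 0.094 FPKM) passed the filter through the controls only and so had to come out lower. The sum of this list was 12.4 to 13.9 FPKM in controls and 7.26 to 8.56 FPKM in the libraries labelled YAP. Of 6 adipocyte markers in the tables, CIDEC was the only one tested and fell, while PPARG had 9 reads over the 3 controls and 8 over the 3 libraries labelled YAP. ADIPOQ, PLIN1, LPL and LEP had at most 27 reads in any library of either group. Of 10 stromal markers 6 rose, 2 fell (NT5E and ITGB1) and 2 were not called (PDGFRA and CD44). Of all tested genes, 12.9% were called higher and 23.0% lower. The stromal sum, most of it COL1A1, COL1A2 and DCN, was 9317 to 10290 FPKM in controls. In the libraries labelled YAP it was 14260 to 15010 FPKM. The part of these shifts in the changes of the 9 genes was not tested.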

How the data were processed

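RNA was sequenced from 3 control libraries and 3 libraries labelled YAP. The authors deposited FPKM values, and per the submitters' processing notes fastp, HISAT2 and HTSeq were used, without versions or settings; genome build, annotation and strand setting: not given in the sources used here. Groups and replicate numbers come from sample titles, and 6 value columns that match no sample were not used. Of 16285 identifiers, 16262 matched a RefSeq symbol (assembly ARS1.2, names only). Whole reads were recovered from FPKM steps for all 15958 genes above 0 (within 0.05 reads).

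Log2(FPKM + 1) was tested with limma 3.58.1 in R 4.3.3 (eBayes with trend, two-sided, Benjamini-Hochberg over 10761 genes), without rescaling, and the code was tested on simulated data. Alternatives were a pseudocount of 0.1, median-of-ratios scaling, no filter, filtering at 0.1 FPKM, quantile normalization, a replicate block, limma-voom on recovered reads and each library left out on the same genes. Intervals are 95% intervals. Summed levels and shares were added after the values were seen. The members and lists were chosen with earlier results of these data known. Named genes are the 9 genes, up to 4 called genes per role with the smallest adjusted p, known targets, and the 2 nearest profiles per tested gene; genes not called, and low markers, are named where a count required it, chosen after their values were seen.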

Additional observations from a re-analysis of the deposited data

How the results depend on the processing

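No log2 change of the 8 tested genes changed sign in the 13 alternatives, and BMP2, BMP4, FST, FSTL3 and GREM1 were called in every one. BMP2 had passed the filter through the controls only, and the fits without single libraries kept the same filtered genes. Without the filter, BMP2 had limma adjusted p = 0.0089. Leaving out single libraries gave 0.268 to 0.373 for BMP1, -0.568 to -0.286 for INHBA and -0.491 to -0.191 for NOG, with calls changed for all 3. INHBA was not called without the filter (-0.454), with median-of-ratios scaling (-0.375) or with quantile normalization (-0.392). With 1 FPKM added to both genes, the log2 difference of BMP2 over GREM1 was 0.292 in place of -0.365. Genes called lower numbered 1505 with median-of-ratios scaling and 1387 to 2273 without single libraries, in place of 2476. The cause of these shifts was not tested. With the replicate block, 3745 genes were lower and NOG was called (-0.311, limma adjusted p = 0.035). Deviations of same-numbered libraries correlated at -0.02, 0.59 and 0.60, and those of differently numbered libraries at -0.62 to 0.14. The labels state no pairing, and the main fit did not use the numbers as 1. Whether same-numbered libraries share a batch was not tested. BMP6 had at most 5 reads in a library and was not tested in the main fit.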

Other observations

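A few pathway genes below the filter were also separated between the groups, and they are named here after their values were seen. BMPR1B, a BMP type I receptor gene, had 346, 219 and 284 reads in controls and 76, 58 and 98 reads in the libraries labelled YAP (0.838 ± 0.18 and 0.221 ± 0.045 FPKM). BMPER, which encodes an extracellular BMP binding protein, had 21, 19 and 18 reads in controls and 6, 2 and 1 reads in the libraries labelled YAP. PCSK5, a convertase gene, had 80, 74 and 75 reads in controls and 228, 181 and 289 reads in the libraries labelled YAP. The receptor genes ACVR2B and ACVRL1 went the other way from BMPR1B. ACVR2B had 48, 36 and 38 reads in controls and 78, 55 and 74 reads in the libraries labelled YAP. ACVRL1 had 13, 20 and 11 reads in controls and 36, 23 and 24 reads in the libraries labelled YAP. None of these genes was among those tested. No background share was computed for genes below the filter, so these values are a description.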
